A study of Mus musculus with 32 samples.

Results

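Solute carriers are the membrane proteins, encoded by the Slc genes, that move ions, sugars, amino acids, metals and organic compounds across membranes. The genes described here are the 169 genes, measured by 225 probes, whose symbol starts with Slc and a number, leaving out the mitochondrial carriers of Slc25a and the organic anion polypeptides of Slco. They are 169 of 9030 named genes on the array and fall into 44 families, 13 of which have 5 or more measured genes. A single probe measured 126 of them and up to 4 probes each measured the other 43. The symbol rule also took in 30 genes of families that lie mostly in vesicles and organelles, such as the nucleotide sugar transporters of Slc35. It further took genes that are no transporters themselves, among them the scaffolds Slc9a3r1 and Slc9a3r2 and the adaptor Slc4a1ap.

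The study compared Nox4 knockout mice (-/-) with wild-type mice in kidney, muscle, pancreas and brain, all of them males on a C57BL/6 background at 17 weeks of age. Nox4 encodes an NADPH oxidase that makes hydrogen peroxide and is abundant in kidney tubules. Each of 4 knockout animals gave all 4 tissues. Each tissue sample was hybridised on 2 arrays, with dyes exchanged, against 1 wild-type RNA pool. The pool held 4 animals by the design text and 6 by the labelling protocol, so its size is not settled. How the allele was made is not stated in the sources used here. The log2 ratios below are likely knockout over wild-type pool, a direction that the labels do not settle. If they run the other way, above and below swap throughout. Ratios carry no level, so the labelled tissues could not be checked against defining markers, and 0 of 20794 probes are named Nox4.

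In the proximal tubule of the kidney, carriers of the brush border reclaim glucose, amino acids, phosphate, sulphate and citrate from the filtrate, driven by the sodium gradient that the Na,K-ATPase maintains. Organic anion transporters of Slc22 take up drugs, urate and metabolic waste from the blood side in exchange for dicarboxylates, which Slc13a3 returns to the cell. In brain, carriers clear transmitters from the synapse and load them into vesicles. In muscle and pancreas they supply fuel, lactate exchange and amino acids for protein synthesis.

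Arrays carried 19815 to 20684 values each and had medians between −0.07 and 0.05. The 32 arrays were deposited with 1844 floor values, ratios beyond 8 in size, of 655162 values in all. All 920 positive ones came from arrays labelling the knockout with Cy5, and all 924 negative ones from the opposite orientation. Floor values touched 12 carriers, with 16 values. Across probes without floor values, r between both arrays of 1 animal ranged from −0.576 to 0.0634, and r between arrays of different animals that shared dye orientation and tissue ranged from 0.0317 to 0.482. Probes are not independent replicates, and these correlations describe the arrays only. If the ratios of the Cy3 arrays were deposited with the opposite direction, their signs would have to be turned. The signs were kept as deposited, and counts with the Cy3 arrays turned are given with the dye orientations.

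No carrier passed the test against the pool in any tissue. Limma called 0 of 167 carriers in kidney at an adjusted p under 0.05, where 0% of all 16825 genes passed, and the smallest adjusted p of a carrier was 0.476. It called 0 of 166 in muscle, where 0% of 16662 genes passed (smallest adjusted p of a carrier 0.538). It called 0 of 165 in pancreas, where 0% of 16377 genes passed (smallest 0.991), and 0 of 166 in brain, where 0% of 16729 genes passed (smallest 0.773). An unadjusted p under 0.05 was found for 13 carriers in kidney (7.78%, against 9.28% of all genes), 9 in muscle (5.42%, against 7.29%), 6 in pancreas (3.64%, against 2.91%) and 7 in brain (4.22%, against 4.13%), shares near those of all genes. All single-gene values against the pool below are therefore descriptions of these animals, and none of these differences passed the adjusted test. The pool is 1 sample, so its own animal-to-animal spread is not in these tests.

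Most carriers lay close to the pool. The mean log2 ratio was within 0.2 of 0 for 163 of 167 carriers in kidney, 142 of 166 in muscle, 147 of 165 in pancreas and 155 of 166 in brain. The carriers without a test, 2 in kidney, 3 in muscle, 4 in pancreas and 3 in brain, had values in fewer than 3 animals, and they were among Slc5a9, Slc7a5, Slc4a8, Slc14a2 and Slc7a4. The mean exceeded 0.5 in size for 1, 7, 7 and 3 carriers in the same order. The median carrier stood at 0.00 in kidney, −0.02 in muscle, −0.01 in pancreas and 0.01 in brain, beside medians over all genes tested of 0.00, −0.02, 0.00 and 0.01. The median SD between animals of a carrier was 0.098 in kidney, 0.162 in muscle, 0.178 in pancreas and 0.129 in brain, and that of all genes was 0.099, 0.173, 0.217 and 0.127 in the same order, so both were narrowest in kidney. Of 153 carriers with a value in all 16 animal and tissue combinations, 0 kept 1 sign throughout, and 0.0268% of all genes did.

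**Figure D1:**
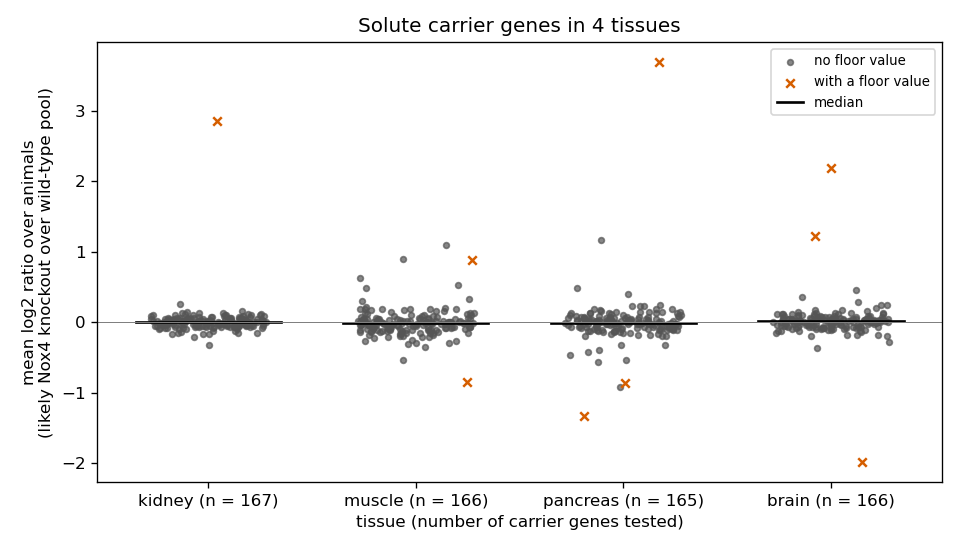
Mean log2 ratio over animals (y axis, likely Nox4 knockout over wild-type pool) of each carrier gene tested in kidney, muscle, pancreas and brain (x axis, points spread sideways at random). Black bars are medians and crosses mark genes with a floor value; 163 of 167 kidney carriers lie within 0.2 of 0, and most points beyond 1 in size are crosses.

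The organic ion transporters of Slc22 held, with signs as deposited, the lowest kidney value of any carrier, that of Slc22a6. That rank was lost when Cy3 signs were turned, an alternative for ranks and family medians chosen after seeing the data: Slc22a6 then averaged −0.10, rank 40 of 167 from the lowest, and Slc7a8 was lowest at −0.29. As deposited, of 10 measured Slc22 genes, 8 lay below the pool in kidney, where 48.5% of all genes did, with a family median of −0.04. Among these 8, Slc22a2 and Slc22a18 were at −0.004 and −0.003. An unadjusted p under 0.05 was found for 3 of the 10, all of them below, where 5% of all genes lay below at that threshold. In the other tissues the counts below the pool were 3 of 10 in muscle, 4 of 10 in pancreas and 2 of 10 in brain, with medians of 0.02, 0.04 and 0.04. Of all genes, 58.4%, 49.6% and 46.6% lay below in the same order. The family median by animal was 0.02, −0.11, −0.05 and −0.10 in kidney, so animal 1 stood on the other side of 0 from the rest.

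Slc22a6 encodes OAT1, the basolateral uptake transporter for organic anions that defines renal secretion of many drugs. Its kidney log2 ratios were −0.48, −0.24, −0.32 and −0.26 in the 4 knockout animals, a mean of −0.33 ± 0.05 (SE, n = 4) or 0.798 of the pool (limma, unadjusted p = 0.000746, adjusted p = 0.476). All 8 kidney arrays were below 0, and both dye orientations gave a mean of that sign, −0.42 with the knockout in Cy5 and −0.23 with it in Cy3. In muscle the values were 0.05, 0.33, −0.15 and −0.05, and in pancreas 0.29, 0.24, −0.01 and −0.18. In brain they were 0.02, 0.16, 0.07 and 0.31, above the pool in every animal. The kidney minus brain difference was −0.46 ± 0.12 and the kidney minus pancreas difference −0.41 ± 0.12. Neither passed after adjustment over all genes (limma, adjusted p = 1 and 0.641).

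Slc22a7, which encodes OAT2, was also below 0 on all 8 kidney arrays. Its animals stood at −0.17, −0.19, −0.20 and −0.11, a mean of −0.17 ± 0.04 (SE, n = 4, limma adjusted p = 0.511). Slc22a12, the apical urate exchanger URAT1, had −0.24, −0.13, −0.10 and −0.17, a mean of −0.16 ± 0.04 with 7 of 8 arrays below 0 (limma, adjusted p = 0.511). As deposited, every animal was below the pool for Slc22a6, Slc22a7 and Slc22a12. With the Cy3 arrays turned, Slc22a7 averaged 0.08, above 0, and Slc22a12 averaged −0.12. Slc22a8, which encodes OAT3, the other main basolateral organic anion transporter, stood at 0.00, −0.15, −0.05 and −0.05, a mean of −0.06 ± 0.04. The remaining members lay nearer to 0 or varied more between animals. Slc22a13 averaged −0.05, the carnitine transporter Slc22a5 −0.02, the organic cation transporter Slc22a2 0.00 and Slc22a18 0.00. Slc22a21, a mouse carnitine transporter, averaged 0.04 with animals from −0.22 to 0.35. Slc22a17, described as a receptor for lipocalin 2, averaged 0.11 on 2 probes, with 0.49 in animal 2 and −0.05 to 0.01 elsewhere.

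**Figure D2:**
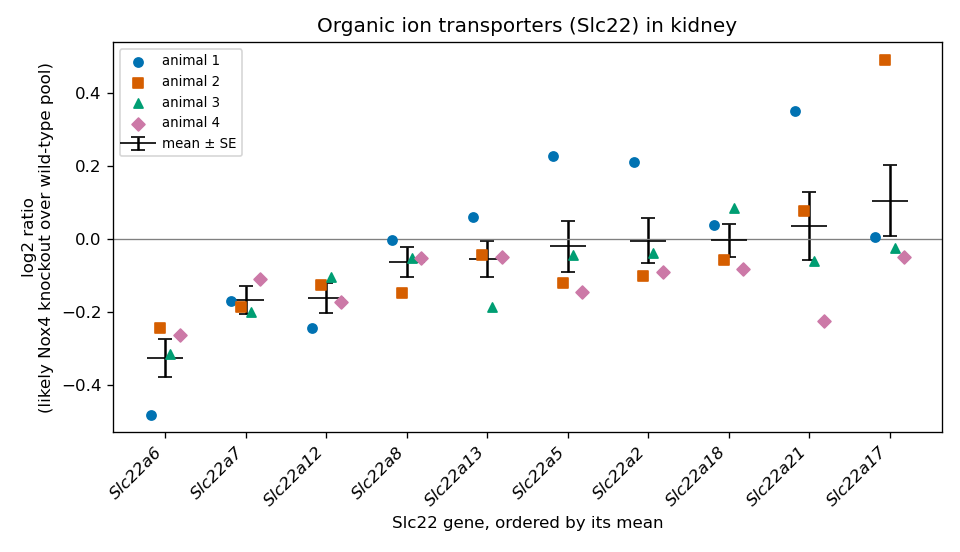
Log2 ratio in kidney (y axis, likely Nox4 knockout over wild-type pool) of the 10 Slc22 genes (x axis, ordered by mean). Symbols are the 4 animals and black bars the mean ± SE; Slc22a6, Slc22a7 and Slc22a12 are below 0 in every animal, and animal 1 is the highest for Slc22a5, Slc22a2 and Slc22a21.

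Promoters of 3 Slc22 genes are shown, those of Slc22a6 and Slc22a12, with kidney means of −0.33 and −0.16, and that of Slc22a8, the neighbour and close relative of Slc22a6, with −0.06. As background, HNF1 of liver and kidney is a known activator of such transporter genes. Slc22a7 is not shown. The sequences are those of RefSeq, GRCm38.p6, from 250 bases before to 50 bases after the start of the gene, 5′ to 3′ on the strand of the gene. Capitals mark the HNF1 half-site GTTAAT or its reverse complement, searched on both strands.
Slc22a6 (chr19:8617746-8618045, plus strand): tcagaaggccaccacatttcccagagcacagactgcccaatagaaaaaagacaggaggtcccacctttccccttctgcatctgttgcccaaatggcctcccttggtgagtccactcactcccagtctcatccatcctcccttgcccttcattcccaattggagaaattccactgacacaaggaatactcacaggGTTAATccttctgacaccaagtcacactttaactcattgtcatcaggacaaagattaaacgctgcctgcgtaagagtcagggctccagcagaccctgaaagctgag
Slc22a8 (chr19:8592932-8593231, plus strand): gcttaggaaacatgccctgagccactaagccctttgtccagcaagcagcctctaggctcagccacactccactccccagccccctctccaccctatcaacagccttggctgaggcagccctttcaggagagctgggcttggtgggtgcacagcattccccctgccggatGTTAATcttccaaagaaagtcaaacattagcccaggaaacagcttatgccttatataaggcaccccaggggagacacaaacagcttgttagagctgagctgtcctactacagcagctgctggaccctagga
Slc22a12 (chr19:6543021-6543320, minus strand): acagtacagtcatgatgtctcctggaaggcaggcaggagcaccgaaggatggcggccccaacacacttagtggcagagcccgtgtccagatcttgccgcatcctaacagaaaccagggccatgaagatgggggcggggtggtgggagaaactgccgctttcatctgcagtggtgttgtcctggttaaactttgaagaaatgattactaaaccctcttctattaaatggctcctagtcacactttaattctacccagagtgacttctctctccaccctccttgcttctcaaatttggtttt
The windows of Slc22a8 and Slc22a6 start 24814 bases apart on the same strand. Each of these 2 windows holds 1 half-site, and that of Slc22a12 holds 0. The half-site was found in 2332 of 32851 promoters (7.10%) and in 11 of 182 promoters of the 133 carriers that matched the table (6.04%), among them 2 of 8 Slc22 promoters. The core of the antioxidant response element, TGACNNNGC, searched separately, was found on either strand in 12.4% of all promoters and 14.8% of carrier promoters, and in 0 of the 8 Slc22 promoters. These matches describe letters only.

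Other kidney carriers below the pool belonged to several families. An unadjusted p under 0.05 was reached by 9 of 167 carriers below the pool, where 5% of all genes did, and by 4 of 167 above it, where 4.28% of all genes did. Besides the Slc22 genes, those below were Slc36a3, Slc26a4, Slc7a4, Slc13a3, Slc39a11 and Slc3a2. Slc13a3, the dicarboxylate transporter that feeds organic anion exchange, had −0.29, −0.09, −0.19 and −0.01 in kidney, a mean of −0.15 ± 0.06 (SE, n = 4, limma adjusted p = 0.525). All 4 animals were below the pool, but the arrays with the knockout in Cy5 averaged 0.02 and those with it in Cy3 −0.31. Slc26a4, which encodes the chloride and bicarbonate exchanger pendrin of the collecting duct, had −0.33, −0.06, −0.20 and −0.07, a mean of −0.16 ± 0.06 with 7 of 8 arrays below 0. Slc3a2, the heavy chain that carries several amino acid transporters to the membrane, averaged −0.21 ± 0.08 with animal 3 at 0.01 and animal 2 at −0.47. Slc36a3 (−0.14), Slc7a4 (−0.12) and Slc39a11 (−0.15) were below the pool in all 4 animals on 7, 6 and 5 of 8 arrays.

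Above the pool in kidney stood Slc39a14, Slc17a8, Slc38a2 and Slc41a2 at an unadjusted p under 0.05. Slc39a14, the zinc, iron and manganese importer ZIP14, had 0.28, 0.13, 0.51 and 0.10, a mean of 0.25 ± 0.07 (SE, n = 4, limma adjusted p = 0.511), and 7 of 8 arrays were above 0. Slc38a2, the amino acid transporter SNAT2 that cells induce under amino acid shortage and hypertonic stress, had 0.10, 0.04, 0.10 and 0.16, a mean of 0.10 ± 0.04 on 2 probes. It was the 1 carrier of 166 above 0 on all 8 kidney arrays, where 0.558% of all genes were. Below 0 on all 8 kidney arrays were 3 of 166 carriers, where 0.899% of all genes were. They were Slc22a6, Slc22a7 and Slc24a3, a sodium-calcium-potassium exchanger at −0.08 ± 0.04 that is named because of this count. Slc17a8, the vesicular glutamate transporter VGLUT3, averaged 0.13 ± 0.04 and Slc41a2, a magnesium transporter, 0.14 ± 0.06.

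Further kidney carriers named by the rule had smaller or less even values. The sodium-calcium exchanger Slc8a1 averaged 0.12 and the urate transporter Slc2a9 0.09, each above the pool in all 4 animals. Slc2a9 was at 0.35 with the knockout in Cy5 and at −0.16 with it in Cy3. The iron transporter Slc11a2 averaged 0.11, with 0.33 in animal 1 and 0.03 to 0.05 elsewhere. Some other textbook carriers of the tubule, picked for a known role, had means from −0.04 to 0.10. The glucose transporter Slc5a1 averaged −0.04, the phosphate transporter Slc34a1 0.10 and Slc12a1, the sodium-potassium-chloride cotransporter of the thick limb, −0.01. Of 16 listed proximal tubule markers that are no carriers, 6 were measured, with 3 above and 3 below the pool in kidney and a range of −0.05 to 0.01. Their part in the Slc22 values was not tested.

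In muscle 3 carriers of ion, amino acid and sulphate transport, each measured by 1 probe, stood above the pool on every array. None passed the adjusted test against the pool. Ratios carry no level, so how strongly muscle expresses these genes could not be judged. Slc12a2 encodes NKCC1, the sodium-potassium-chloride cotransporter that sets cell volume and chloride. Its muscle log2 ratios were 0.33, 1.25, 1.44 and 1.37, a mean of 1.10 ± 0.20 (SE, n = 4, limma adjusted p = 0.538 against the pool), and animal 1 was the lowest. In kidney its values were −0.14, 0.28, 0.14 and 0.15, in pancreas −0.11, −0.21, −0.08 and 0.29, and in brain 0.03, −0.22, −0.07 and −0.34. All 4 muscle values were above all 12 values of the other tissues. The share of all genes with tissues this far apart was not counted. The muscle minus brain difference was 1.25 ± 0.20 (limma, adjusted p = 0.0275) and the muscle minus pancreas difference 1.13 ± 0.20 (limma, adjusted p = 0.0300).

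Slc6a19 encodes B0AT1, the sodium-coupled neutral amino acid transporter of the intestinal and renal brush border. It stood at 0.50, 1.57, 0.58 and 0.95 in muscle, a mean of 0.90 ± 0.19 (SE, n = 4, limma adjusted p = 0.538 against the pool). In brain it was at 0.13, −0.47, −0.29 and −0.49, and the muscle minus brain difference was 1.18 ± 0.23 (limma, adjusted p = 0.0365). The muscle minus pancreas difference was 0.97 ± 0.23 and did not pass (limma, adjusted p = 0.0749). Slc13a1, the sodium-sulphate cotransporter NaS1 of the kidney and gut, stood at 0.36, 1.05, 0.43 and 0.71 in muscle, a mean of 0.64 ± 0.13. Its muscle minus brain difference of 0.76 ± 0.19 did not pass (limma, adjusted p = 0.0946).

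These 3 genes were the carriers above 0 on all 8 muscle arrays, 3 of 164 where 1.56% of all genes were. The other 248 genes of that kind had medians of 0.28, 0.89, 0.45 and 0.72 in animals 1 to 4. Slc6a19 and Slc13a1 had the same order of animals as these medians, and Slc12a2 did not. Of the 300 probes of all 251 genes, 85 (28.3%) belonged to the top decile of probe numbers, and the probe of Slc6a19 was among them while those of Slc12a2 and Slc13a1 were not. The part of probe position in these values was not tested. The calls between tissues rested on the fit across all 4 tissues, with 1 spread per gene shared by them. As in the tests against the pool, the pool's own animal-to-animal spread is not in that fit. With the animal as a replicate block, which the shared animals of the labels support, limma's adjusted p for muscle minus brain was 0.0755 for Slc12a2 and 0.0890 for Slc6a19, and for muscle minus pancreas it was 0.0563 for Slc12a2, so 0 carriers passed. Without animal 2, animal 3 or animal 4 (each in turn), or with only the 2 tissues of a difference in the fit, 0 of these 3 differences passed.

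**Figure D3:**
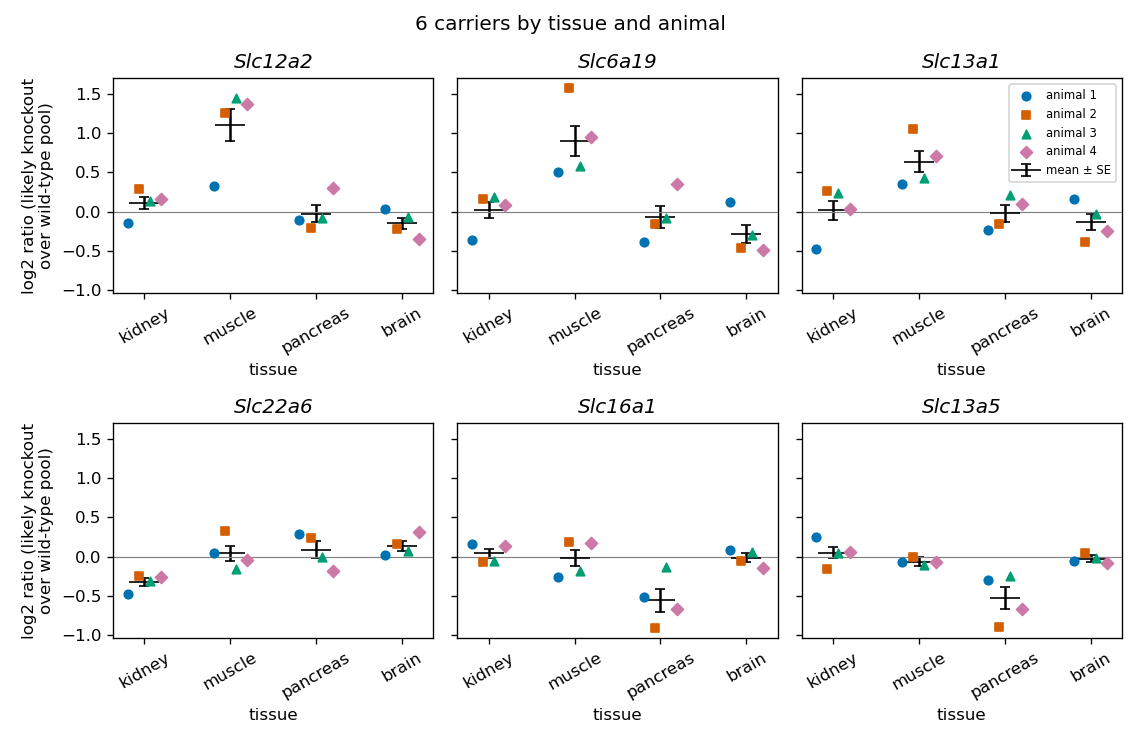
Log2 ratio (y axis, likely Nox4 knockout over wild-type pool) of 6 carriers in kidney, muscle, pancreas and brain (x axis), with symbols for the 4 animals and black bars for the mean ± SE. Slc12a2, Slc6a19 and Slc13a1 are above 0 in every animal in muscle, Slc22a6 is below 0 in every animal in kidney, and Slc16a1 and Slc13a5 are below 0 in every animal in pancreas.

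Few carriers were called in the differences between tissues. Limma called 0 of 164 carriers for kidney minus brain (0% of 16257 genes), 0 for kidney minus muscle (0.0123%) and 0 for kidney minus pancreas (0%). It called 2 for muscle minus brain (0.461%), 0 for pancreas minus brain (0%) and 1 for muscle minus pancreas (0.578%). At an unadjusted p under 0.05 the counts were 4 carriers for kidney minus brain (2.92% of all genes), 7 for kidney minus muscle (6.23%) and 10 for kidney minus pancreas (5.67%). They were 17 for muscle minus brain (9.23%), 14 for pancreas minus brain (8.29%) and 23 for muscle minus pancreas (12.8%). The kidney minus muscle difference of Slc12a2 was −0.99 ± 0.20 and did not pass (limma, adjusted p = 0.178).

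Other muscle carriers with an unadjusted p under 0.05 numbered 2 above and 4 below the pool. In all, 5 of 166 carriers lay above at that threshold, where 3.61% of all genes did, and 4 of 166 below, where 3.69% did. Above stood Slc7a10, the alanine, serine and cysteine exchanger Asc-1, at 0.20 ± 0.07, and the sulphate transporter Slc26a2 at 0.16 ± 0.06. Below stood the anion exchanger Slc4a9 at −0.26 ± 0.06, Slc43a3 at −0.29 ± 0.09, Slc35c2 at −0.30 ± 0.10 and the proton-coupled proline and glycine transporter Slc36a2 at −0.25 ± 0.09. Each of these 6 had 1 sign in all 4 animals and the opposite sign between the 2 dye orientations. For Slc4a9 the means were 0.28 with the knockout in Cy5 and −0.80 with it in Cy3. Slc35a4, a Slc35 family gene of the nucleotide sugar transporters, was the 1 carrier of 164 below 0 on all 8 muscle arrays, where 0.552% of all genes were, with animals at −0.06, −0.11, −0.20 and −0.37. Slc2a4, the insulin-regulated glucose transporter GLUT4 of muscle fibres, averaged −0.13 ± 0.07, below the pool in all 4 animals and above 0 on 4 of 8 arrays.

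Markers of cell types lay on both sides of the pool in muscle, the tissue in which 58.4% of all genes lay below 0 with a median of −0.02. Of 7 measured leukocyte markers 6 lay below, from −0.53 to 0.09 with 2 at an unadjusted p under 0.05, and of 9 markers of the muscle fibres themselves 6 lay below, from −0.36 to 0.08 with 1. Endothelial markers ranged from −0.26 to 0.60, with 5 of 7 below and 2 above at an unadjusted p under 0.05. None passed the adjusted test. In bulk tissue, fewer cells of a type and less RNA per cell cannot be told apart. Whether these markers bear on the muscle carriers was not tested.

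In pancreas a lactate and a citrate transporter had the smallest p among the carriers measured in all 4 animals. Slc16a1 encodes MCT1, which exchanges lactate and pyruvate with protons. Slc16a1 stood at −0.52, −0.91, −0.13 and −0.67, a mean of −0.56 ± 0.14 (SE, n = 4, limma adjusted p = 0.991), and 7 of 8 arrays were below 0. Slc13a5, the sodium-citrate cotransporter, stood at −0.30, −0.90, −0.25 and −0.67, a mean of −0.53 ± 0.14 (limma, adjusted p = 0.991), likewise on 7 of 8 arrays. For both genes animal 2 was the lowest and animal 3 the nearest to 0. In the other tissues their means lay between −0.06 and 0.05. The kidney minus pancreas differences of 0.60 ± 0.15 for Slc16a1 and 0.58 ± 0.13 for Slc13a5 did not pass (limma, adjusted p = 0.426 and 0.387).

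Fewer pancreas carriers than kidney carriers kept a sign across arrays, and the same held for all genes. In kidney 0.558% of all genes were above 0 on all 8 arrays and 0.899% below, and the pancreas shares are given below. An unadjusted p under 0.05 was found for 3 of 165 carriers above the pool, where 1.34% of all genes had it, and for 3 of 165 below, where 1.58% had it. All-array signs were found for 0 of 154 carriers above 0, where 0.0969% of all genes had them, and 0 of 154 below, where 0.142% had them. The fructose transporter Slc2a5 had 0.15, 0.31, 0.43 and 0.09, a mean of 0.24 ± 0.09, yet 0.76 with the knockout in Cy5 and −0.27 with it in Cy3. The oligopeptide transporter Slc15a2 averaged 0.41 ± 0.13 in the 3 animals measured. Slc7a7, which exports cationic amino acids, had 2.20, 1.93, 0.92 and −0.38, a mean of 1.17 ± 0.45. Its arrays averaged 2.21 with the knockout in Cy5 and 0.12 with it in Cy3. Slc26a4 averaged −0.42 ± 0.09 in 3 animals, with 0.21 in the Cy5 and −1.26 in the Cy3 orientation. Slc2a2, the glucose transporter GLUT2 of beta cells, averaged 0.14 ± 0.08 and was above the pool in all 4 animals.

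Several pancreas genes had 1 animal far from the rest, and they belonged to different families. The glutamine transporter Slc38a1 had −3.02 in animal 1, without a floor value, while its other animals lay from −0.29 to −0.15. Slc1a5, the neutral amino acid exchanger ASCT2, had −4.32 in animal 2, which includes a floor value, while its other animals lay from −0.55 to −0.03. The lactate exporter Slc16a3 had −3.78 in animal 1, again with a floor value, while its other animals lay from −0.18 to 0.36. Slc5a9, at 8.65, −0.87 and 3.29 in the 3 animals measured, also held a floor value.

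In brain 6 carriers above the pool and 1 below had an unadjusted p under 0.05, of 166, where 2.24% of all genes lay above and 1.89% below at that threshold. Slc13a3, the dicarboxylate transporter described for kidney, stood at 0.10, 0.16, 0.15 and 0.27, a mean of 0.17 ± 0.05 (SE, n = 4, limma adjusted p = 0.773). Slc6a9, the glycine transporter GlyT1 that clears glycine around glutamate and glycine synapses, stood at 0.07, 0.15, 0.13 and 0.48, a mean of 0.21 ± 0.08 (limma, adjusted p = 0.773). These were the 2 of 165 carriers above 0 on all 8 brain arrays, where 0.404% of all genes were. Below 0 on all 8 were 0 of 165 carriers, where 0.496% of all genes were. Slc18a2, the vesicular monoamine transporter VMAT2, stood at 0.13, 0.25, 0.09 and 0.24, a mean of 0.18 ± 0.05, with −0.05 in the Cy5 and 0.41 in the Cy3 orientation. The amino acid exchanger Slc7a8 averaged 0.16 ± 0.05 with −0.22 and 0.54 in the same orientations. Slc35e1 and Slc9b1 averaged 0.30 ± 0.10 and 0.24 ± 0.09, each on 7 of 8 arrays above 0.

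Below the pool in brain stood Slc28a2, a sodium-coupled purine nucleoside transporter, at −0.10, −0.17, −0.16 and −0.27, a mean of −0.18 ± 0.05. Its dye orientations opposed each other, at 0.10 with the knockout in Cy5 and −0.45 with it in Cy3. Slc1a1, the neuronal glutamate transporter EAAC1, was measured by 4 probes that all lay below 0, from −0.21 to −0.01. Its mean was −0.10 ± 0.04, with 7 of 8 arrays below 0 (limma, adjusted p = 0.773). The astrocyte glutamate transporters Slc1a2 and Slc1a3 averaged 0.05 and −0.20, and the vesicular glutamate transporter Slc17a7 0.06. The amino acid transporter Slc38a3, which releases glutamine from astrocytes, averaged 0.12 ± 0.05 and was above the pool in all 4 animals. Brain means beyond 1 in size, those of Slc30a5 (2.18), Slc35a5 (1.23) and Slc38a4 (−1.98), each came with 1 floor value.

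By family, medians of the 13 families with 5 or more genes lay between −0.11 and 0.11. Among them the highest median was that of Slc4, the bicarbonate transporters, in pancreas at 0.11. There 3 of 4 tested genes lay above the pool and 0 had an unadjusted p under 0.05. The gene below was the adaptor Slc4a1ap at −0.16. By animal the Slc4 median in pancreas was 0.22, −0.01, −0.05 and −0.16. Next was Slc7, the amino acid exchangers, in brain at 0.10, with 5 of 6 genes above the pool and 1 at an unadjusted p under 0.05. The lowest was that of the zinc exporters of Slc30 in muscle at −0.11, with 5 of 5 genes below the pool and 0 at an unadjusted p under 0.05. Of these 5, Slc30a6 counted as below only through animal 3, at −4.02 with a floor value. Its other 3 animals lay above 0, at 0.04, 0.03 and 0.54. The zinc importers of Slc39 followed in muscle at −0.09, with 5 of 7 below. Slc1, the glutamate and neutral amino acid transporters, had 6 of 6 genes below in muscle and 5 of 6 in pancreas, with medians of −0.04 and −0.05. Beside the family counts, 58.4% of all genes lay below 0 in muscle, 49.6% in pancreas, 46.6% in brain and 48.5% in kidney. In kidney Slc22 had the lowest of these medians as deposited (−0.04). Turning the Cy3 signs put Slc22 at −0.05, above Slc12, the cation-chloride cotransporters, at −0.08. As deposited, the hexose transporters of Slc2 had 6 of 8 kidney genes above, with a median of 0.02, and 4 of 8 were below after that turn, with a median of 0.00.

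**Figure D4:**
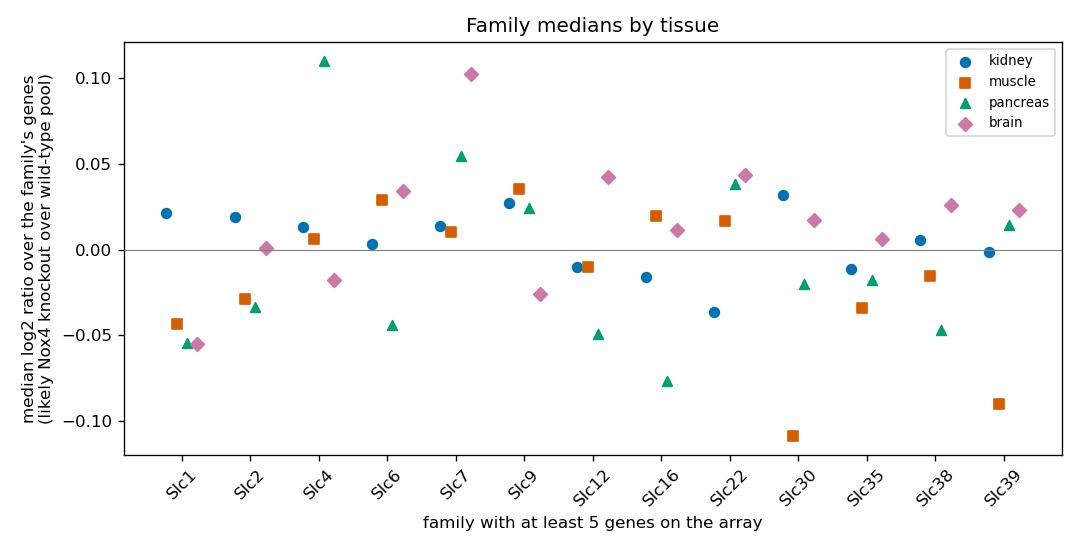
Median log2 ratio over the genes of a family (y axis, likely Nox4 knockout over wild-type pool) for the 13 families with 5 or more genes on the array (x axis), with 1 symbol per tissue. With signs as deposited, Slc22 is the lowest family in kidney at −0.04, a rank lost with the Cy3 arrays turned, and lies above 0 in muscle, pancreas and brain.

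By substrate, 43 amino acid transporters had a kidney median of 0.00 with 22 above and 21 below the pool, and a muscle median of −0.03 with 18 above and 25 below. The 16 carriers of organic ions had 11 below in kidney and 6, 7 and 4 below in muscle, pancreas and brain. They supplied 4 of the 9 kidney carriers below the pool at an unadjusted p under 0.05, namely the 3 Slc22 genes and Slc13a3. Of all genes, 5% lay below in kidney at that threshold. With the Cy3 arrays turned, Slc22a7 and Slc13a3 averaged 0.08 and 0.17, and Slc22a6 and Slc22a12 −0.10 and −0.12. The 18 metal transporters had 11 above in kidney with a median of 0.03, and 7 above in muscle with a median of −0.07. The 27 genes of vesicle and organelle transport had 16 below in kidney, 18 in muscle, 13 in pancreas and 13 in brain. This class was grouped differently from the 30 genes given at the start, and the zinc exporters of Slc30 were not counted in it. Of all genes, 48.5% lay below in kidney, 58.4% in muscle, 49.6% in pancreas and 46.6% in brain. Slc6a20a and Slc6a20b are close copies, and cDNA probes may not separate them.

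The scaffold Slc9a3r1 (NHERF1), which tethers several apical carriers, had 0.44, 0.43, 1.33 and −0.26 in muscle and a kidney mean of 0.00. Genes that work with the carriers mostly lay near the pool as well. Beside the counts that follow, 48.5% of all genes lay below in kidney, 58.4% in muscle, 49.6% in pancreas and 46.6% in brain. Of 8 measured sodium pump subunits and regulators, 5 were below in kidney with a median of −0.04, 4 in muscle, 3 of 7 in pancreas and 6 in brain. Of 14 scaffolds, chaperones and kinases of carriers, 8 were above in kidney, where the kinase Wnk4 averaged 0.12 ± 0.04 and the linker ezrin (Ezr) −0.15 ± 0.04. The 16 ABC transporters, which export drugs and lipids with ATP, split 8 above and 8 below in kidney. Of 11 transcription factors of renal and hepatic carriers, 9 lay below in kidney with a median of −0.05, and 0 had an unadjusted p under 0.05. The mitochondrial Slc25a carriers, kept apart by the rule, had 14 of 22 below in kidney and 15 of 21 in muscle, with medians of −0.02 and −0.08. The 7 Slco transporters were above in 4 cases in kidney and in 0 cases in muscle, where most genes lay below 0.

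The dye orientations often gave opposite signs. The mean over the Cy5 arrays and that over the Cy3 arrays had opposite signs for 116 of 167 carriers in kidney, 113 of 166 in muscle, 131 of 165 in pancreas and 108 of 166 in brain. Among the genes described above, examples with the same sign in both orientations were Slc22a6, Slc22a7, Slc22a12, Slc36a3, Slc26a4, Slc39a11, Slc39a14, Slc17a8, Slc38a2 and Slc8a1 in kidney. Others were Slc12a2, Slc6a19, Slc13a1 and Slc35a4 in muscle, Slc16a1, Slc13a5 and Slc2a2 in pancreas, and Slc13a3, Slc6a9, Slc35e1, Slc9b1, Slc38a3 and Slc1a1 in brain. With the Cy3 arrays turned, limma called 0 carriers in kidney, 4 in muscle, 27 in pancreas and 0 in brain against the pool, while it called 328 of all genes in muscle and 2388 in pancreas.

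**Figure D5:**
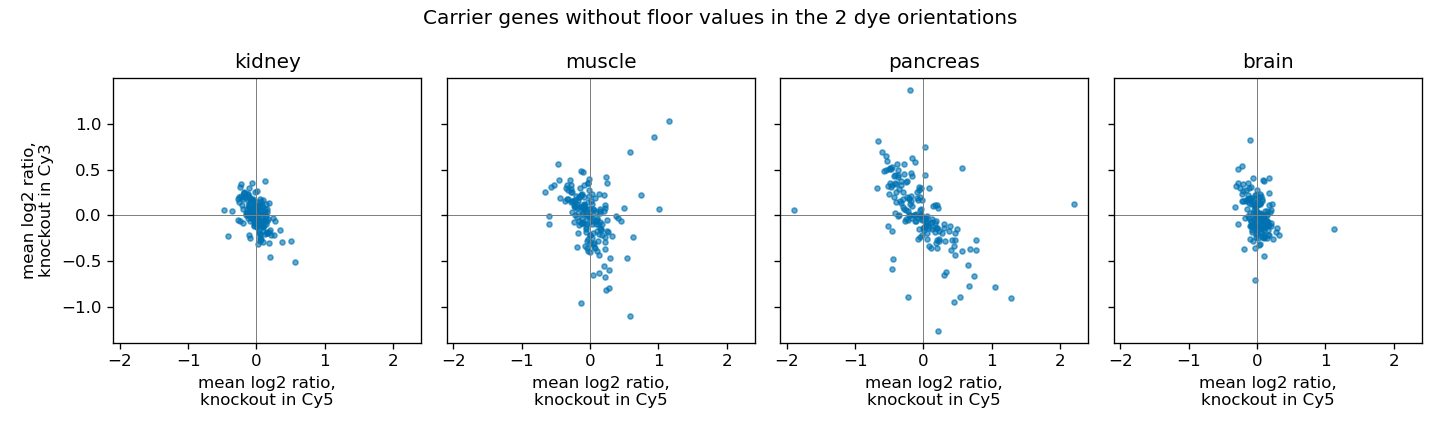
Mean log2 ratio of each carrier without floor values over the 4 arrays with the knockout in Cy5 (x axis) and over the 4 arrays with the knockout in Cy3 (y axis), 1 panel per tissue. Points in the upper left and lower right have opposite signs, as for 131 of 165 carriers in pancreas counted with floor values, and the 3 muscle points at the upper right are Slc13a1, Slc6a19 and Slc12a2.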

How the data were processed

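The deposited values are the authors' log2 ratios, 1 per probe and array, in 1 series table. The base of the logarithm is not named there and was inferred from the size of the floor values. For scanner, background correction and normalisation the steps were not stated in the sources used here. Labelling with Cy3 or Cy5 started from 20 µg of total RNA, per the labels' protocols. A probe annotation table named 12771 of 20794 probes. Probes of a symbol were averaged, an unnamed probe stayed a unit of its own (17053 units at most, called genes in counts), and the 2 arrays of an animal were averaged. Animal means were tested against 0 by limma 3.58.1 (R 4.3.3) where at least 3 animals had a value, as were the 6 differences between tissues in 1 fit, two-sided, with Benjamini-Hochberg adjustment over all genes at a threshold of 0.05. SE is limma's moderated error. The files name no build, and promoters are those of RefSeq. The number of arrays limits precision. The scripts were tested on simulated data.

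Named genes were, by rule, the 8 of smallest p above and below in a tissue with 1 sign in all animals, all Slc22 genes in kidney, the smallest p of each larger family in kidney, genes with floor values, and the first genes of each tissue difference; others are named for a count or a known role, after their values were seen. Members and lists were chosen with earlier results of these data known. The labels give the same animals in all tissues, and deviations of an animal correlated between tissues at r from −0.0830 to 0.110.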

Additional observations from a re-analysis of the deposited data

Results flagged for a closer look

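In 13 of 81 named gene and tissue groups of 4 animals, 1 animal stood apart from the other 3 by Dixon's test. The general chance rate of about 1 in 20 is no yardstick for this count, because genes with a floor value were named for holding one. In kidney these were Slc11a2 in animal 1 (0.328) and Slc22a17 in animal 2 (0.491). In muscle they were Slc4a9 in animal 2 (−0.377), Slc7a6 in animal 4 (3.18) and Slc30a6 in animal 3 (−4.02). In pancreas they were Slc1a5 in animal 2 (−4.32), Slc38a1 in animal 1 (−3.02), Slc15a5 in animal 2 (0.406) and Slc16a3 in animal 1 (−3.78). In brain they were Slc9b1 in animal 4 (0.543), Slc35a5 in animal 3 (3.99), Slc30a5 in animal 1 (8.28) and Slc38a4 in animal 4 (−7.84). A floor value lay in the animal that stood apart for Slc7a6, Slc30a6, Slc1a5, Slc16a3, Slc35a5, Slc30a5 and Slc38a4.

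In the fit across 4 tissues, limma's test of the difference between tissues passed for Slc12a2 in muscle minus brain (1.25) and muscle minus pancreas (1.13) and for Slc6a19 in muscle minus brain (1.18). With the animal as a replicate block, without animal 2, 3 or 4, or with only the 2 tissues fitted, 0 of these 3 passed.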

How the results depend on the processing

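Against the pool, 0 carriers were called in kidney and brain under all 17 alternatives, and in muscle and pancreas under all but the turned Cy3 arrays (4 and 27). The alternative without vesicle and organelle families only dropped genes from the main fit, so its count of 0 was fixed beforehand. The calls between tissues changed more. Muscle minus brain (2 carriers) gave 1 with scaled arrays, and 0 with either dye orientation alone, with the Cy3 arrays turned, with the replicate block and with only the 2 tissues fitted. Muscle minus pancreas (1 carrier) gave 3 with Cy5 arrays only, where 191 of all genes were called. It gave 0 with scaled arrays, Cy3 arrays only, turned Cy3 arrays, the replicate block, weights for spread or only the 2 tissues fitted. Kidney minus pancreas gave 1 with Cy5 arrays only and 6 with the Cy3 arrays turned, where 131 and 355 of all genes were called, and pancreas minus brain gave 7 and 16, where 603 and 1510 were. With the Cy3 arrays turned the called differences were close to 0, at −0.111 and −0.0486 for Slc12a2 (muscle minus brain, muscle minus pancreas) and −0.0475 for Slc6a19 (limma, adjusted p = 0.831, 0.847 and 0.916).

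Carriers at an unadjusted p under 0.05 numbered 28 (muscle), 46 (pancreas) and 26 (brain) with Cy5 arrays only, where 17.8%, 27.6% and 15.1% of all genes did. They numbered 34 (muscle) and 45 (pancreas) with Cy3 arrays only (22.2% and 22.8% of all genes), and 50, 61 and 26 with the Cy3 arrays turned (28.9%, 37.2% and 14.3%). With probes taken singly they were 21 in kidney and 11 in brain. A gene counted there if any of its probes reached that threshold, so genes with several probes had more chances. The share over all genes was not counted in that setting. The median carrier was −0.0579 (Cy5 only) and −0.0368 (turned) in pancreas, 0.0282 in muscle and −0.0111 in brain (both Cy3 only). Leaving out each animal gave 5 to 9 carriers at an unadjusted p under 0.05 in muscle (4.02% to 7.26% of all genes), 3 to 8 in pancreas (2.36% to 3.77%) and 4 to 7 in brain (2.44% to 4.67%). It gave 0 to 1 carriers called for kidney minus muscle, 0 to 3 for muscle minus brain and 0 to 1 for muscle minus pancreas. Of all genes, 0 to 35, 0 to 212 and 6 to 115 were called in the same order. Only the fit without animal 1 kept calls for muscle minus brain. Of 83 named values, 44 changed sign with the Cy3 arrays turned, 22 and 16 with Cy5 or Cy3 arrays alone, and 2 to 4 without 1 animal. The cause of these changes was not tested. The 8-array fit with a dye term had consensus correlations from −0.284 to 0.0823 and called 8 genes in kidney and 1 in muscle, 0 of them carriers.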
